A study of Mus musculus with 77 samples.

Results

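The genes for the complement and coagulation proteins that the liver secretes into plasma were followed in 77 mouse livers. The list held 39 genes chosen by name, 19 of complement and 20 of coagulation and fibrinolysis, out of 55487 genes in the count table. All 39 passed the filter on low counts, which kept 14904 genes. Each library was bulk RNA from a piece of the left lateral lobe of 1 male C57BL/6JRj mouse. DIO-MASH mice were fed the Gubra Amylin NASH diet, rich in fat, fructose and cholesterol, for 34 weeks, and were admitted on a liver biopsy taken before dosing. From then on they received vehicle (9 mice at 8 weeks, 8 at 16 weeks and 7 at 24 weeks), semaglutide, an agonist of the glucagon-like peptide-1 receptor, at 123 µg per kg once daily (7, 8 and 8 mice), or were moved to chow and dosed with vehicle, here called chow reversal (7, 8 and 8 mice). The lean controls were 7 mice kept on chow and dosed with vehicle for 24 weeks, and there was no chow group at 8 or 16 weeks. The mice were 5 to 6 weeks old on arrival, and the diet is a model of obesity with steatohepatitis and fibrosis in which no gene was altered.

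Complement is a cascade of plasma proteases that is started by antibody and C1 (classical pathway), by sugar-binding lectins (lectin pathway) or by factor B and factor D (alternative pathway). All routes cleave C3, and the terminal components then build a pore in the target membrane. Coagulation ends in thrombin, which turns fibrinogen into fibrin, and plasmin, made from plasminogen, dissolves fibrin again. Hepatocytes are the main source of most of these proteins, several of which are also acute phase proteins, and factor D is best known as a product of fat cells.

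The starting points of 6 of these genes were read from RefSeq (GRCm38.p6), whose promoter table held 29 of the 39 members. Each window runs from 250 bases before to 50 bases after the annotated start. C8a and C8b are shown because C8b had the largest fold change with the diet and the pair lies side by side on chromosome 4, the 3 fibrinogen genes because they are among the 4 most abundant members per length in chow livers and lie in 1 cluster on chromosome 3, and Pros1 because it alone was called higher with the diet. Capitals mark matches on either strand to an HNF1 half-site (GTTAAT), a C/EBP site (TTGCNNAA), a STAT site (TTCNNNGAA), an interleukin-6 response element (CTGGGAA) or an NF-kB site (GGGNNTTCC).
C8a (chr4:104876349-104876648, minus strand): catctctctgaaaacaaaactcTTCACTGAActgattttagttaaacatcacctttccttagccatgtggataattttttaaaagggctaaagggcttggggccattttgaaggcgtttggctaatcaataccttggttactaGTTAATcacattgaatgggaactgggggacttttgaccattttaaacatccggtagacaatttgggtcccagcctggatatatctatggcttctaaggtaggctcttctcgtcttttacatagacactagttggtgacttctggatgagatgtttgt
C8b (chr4:104766067-104766366, plus strand): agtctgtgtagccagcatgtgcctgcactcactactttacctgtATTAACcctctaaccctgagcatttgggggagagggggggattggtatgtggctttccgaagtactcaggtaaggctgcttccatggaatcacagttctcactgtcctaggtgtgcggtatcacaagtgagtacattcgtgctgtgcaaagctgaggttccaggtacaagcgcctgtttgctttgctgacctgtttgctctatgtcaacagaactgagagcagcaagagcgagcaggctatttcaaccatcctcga
Fga (chr3:83025903-83026202, plus strand): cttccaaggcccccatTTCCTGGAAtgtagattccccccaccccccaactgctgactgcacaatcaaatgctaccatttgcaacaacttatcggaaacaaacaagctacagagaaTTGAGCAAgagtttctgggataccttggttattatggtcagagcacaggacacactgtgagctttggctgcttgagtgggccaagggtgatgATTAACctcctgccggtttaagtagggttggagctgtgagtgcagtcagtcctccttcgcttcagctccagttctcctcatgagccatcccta
Fgb (chr3:83049814-83050113, minus strand): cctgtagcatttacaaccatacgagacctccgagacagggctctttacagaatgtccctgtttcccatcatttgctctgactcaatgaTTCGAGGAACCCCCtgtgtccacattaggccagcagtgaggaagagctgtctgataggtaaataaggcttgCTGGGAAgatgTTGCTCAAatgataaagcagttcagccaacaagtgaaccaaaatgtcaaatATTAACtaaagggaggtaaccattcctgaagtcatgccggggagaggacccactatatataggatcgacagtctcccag
Fgg (chr3:83007474-83007773, plus strand): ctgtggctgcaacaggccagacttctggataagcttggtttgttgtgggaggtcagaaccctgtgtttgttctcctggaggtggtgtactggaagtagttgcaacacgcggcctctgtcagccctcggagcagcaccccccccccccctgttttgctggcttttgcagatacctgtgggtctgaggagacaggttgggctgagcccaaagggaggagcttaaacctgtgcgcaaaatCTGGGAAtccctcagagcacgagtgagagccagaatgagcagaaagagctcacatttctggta
Pros1 (chr16:62854057-62854356, plus strand): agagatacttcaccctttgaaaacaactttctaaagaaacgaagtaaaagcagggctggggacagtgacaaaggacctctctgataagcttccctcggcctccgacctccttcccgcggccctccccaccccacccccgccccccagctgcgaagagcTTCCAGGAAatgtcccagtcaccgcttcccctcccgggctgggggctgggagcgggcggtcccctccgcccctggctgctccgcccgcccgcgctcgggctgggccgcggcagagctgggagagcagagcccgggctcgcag
The HNF1 half-site was in 8 of the 29 member promoters (C1ra, C8a, C8b, F13b, F2, Fga, Fgb and Hc) and in 7.20% of all 27025 promoters of the same length. The C/EBP letters were in 10 member promoters and 10.8% of all, the STAT letters in 7 and 8.47%, the interleukin-6 letters in 6 and 11.1%, and the NF-kB letters in 1 (Fgb) and 5.72%. In Fgb the STAT and NF-kB matches share letters. The TATA box letters TATAAA were in 3 member promoters and in 14.2% of all, and neither the HNF4 letters CAAAGTCCA (0.477% of all) nor the FXR letters GGTCANTGA (0.799%) were in any of the 29. These are matches of letters in a window and not measured binding. Several other members are neighbours in GRCm38: C2 and Cfb are 85 bases apart, F7 and F10 are 1498 bases apart, and F11 and Klkb1 are 4657 bases apart. F7 and F10 are on chromosome 8, as are F11 and Klkb1, and C2 and Cfb are on chromosome 17.

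Library totals ran from 8883150 to 37631072 reads, with a median of 16406937. Levels are given as CPM, counts scaled to a common library size with TMM factors, which remove a shift shared by most genes. The choice of scaling mattered for the diet: on library totals alone the median log2 difference of all genes between vehicle and chow moved from -0.02 to 0.40 and the share of calls that were higher moved from 54.1% to 89.8%, while the median member stayed 0.63 below the median gene. With library totals in the treatment comparisons the median of all genes lay between -0.31 and -0.13. In 4 mice the summed level of the members stood above all other livers: chow reversal mouse 7 at 24 weeks (82783 CPM), chow mouse 5 (66756 CPM), semaglutide mouse 2 at 24 weeks (58709 CPM) and chow reversal mouse 8 at 24 weeks (55782 CPM), against 46371 CPM in the next. The main counts and the values that rest most on them are also given without them, a choice made after seeing the data. The 4 were picked on the members' own summed level, and none came from the DIO-MASH vehicle groups. Leaving them out thus removes high values only from groups that are set against vehicle. The p-values of those fits are therefore no independent support for a call. A further 3 libraries were numbered apart from the rest, semaglutide mice 7 and 8 at 16 weeks and semaglutide mouse 8 at 24 weeks, and they had the lowest summed level of the classical pathway and C3 of all livers (3596, 5204 and 4476 CPM, against at least 6142 CPM in the others). With these 3 left out, 8 members were called higher with semaglutide at 16 weeks and the calls of Mbl2, C8b, C8g, Klkb1 and Kng1 at that time were lost. The share of all genes called in that fit is not given. In bulk liver RNA, fewer hepatocytes and less RNA of a gene per hepatocyte cannot be told apart. The hepatocyte identity of the tissue was plain from 12 hepatocyte markers, which summed to between 49568 and 157815 CPM over the 77 livers.

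Levels of different genes were compared in CPM per kilobase of transcript, on which scale the members lay far apart. The most abundant were the fibrinogen gamma chain Fgg (median 1902 CPM per kb), the alpha chain Fga (1846), C3 (1377), the beta chain Fgb (1211) and kininogen Kng1 (1012). The least abundant were Pros1 (15.5) and Cfd, the gene of factor D (0.605). In vehicle livers at 24 weeks the first 5 were the same genes, now at 1043 for Fgg, 1010 for C3, 931 for Fga, 688 for Fgb and 634 for Kng1. C8b moved from rank 25 to rank 35 and Serpinf2 from rank 8 to rank 18, the widest moves among the 39. All members together took a median of 3.49% of the reads in chow livers, 2.85% in vehicle livers at 24 weeks, 3.30% with semaglutide at 24 weeks and 3.32% with chow reversal at 24 weeks. The spread between mice of 1 group, as an SD of log2 CPM, ran from 0.13 for Masp2 to 1.08 for Cfd, with a median of 0.28 against 0.31 over all genes tested.

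**Figure D1:**
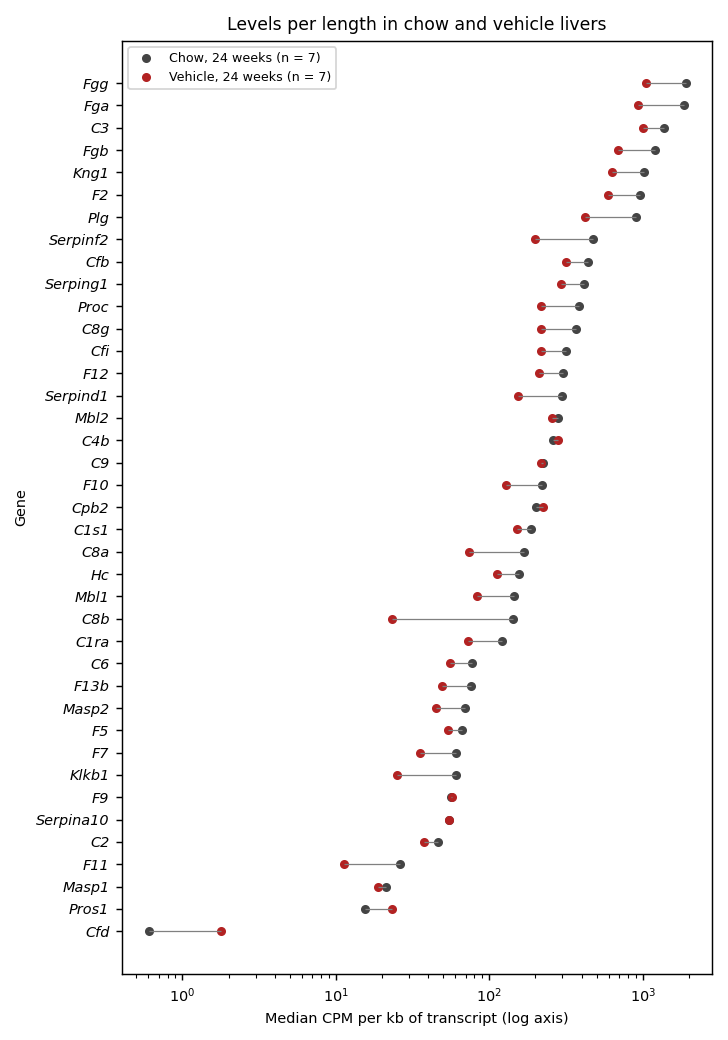
Median level of each of the 39 genes in CPM per kilobase of transcript (log axis) in chow livers and in vehicle livers at 24 weeks, 7 mice each. Fibrinogen, C3 and kininogen lead in both groups, Cfd is lowest in both, and most vehicle points lie left of their chow points.

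The first comparison asked how the diet changed the list. Most members were lower in vehicle-dosed DIO-MASH livers at 24 weeks than in chow livers: 30 of 39 fell and 1, Pros1, rose by edgeR's quasi-likelihood test at a Benjamini-Hochberg adjusted p under 0.05, where 22.0% of all genes tested were called lower and 25.8% higher. The median log2 fold change of the members was -0.65, and that of all genes was -0.02. Coagulation members fell further at the median (-0.79, with 16 of 20 called lower) than complement members (-0.51, with 14 of 19 called lower), a difference that was not tested. In 17 members every vehicle liver was below every chow liver, against 8.43% of all genes. On library totals 17 members were called lower and 4 higher, where 887 of all 14904 genes were called lower and 7776 higher.

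Of 5 genes, the classical pathway with C3, 4 were called lower, and of the 4 lectin pathway genes 3 were. C1ra, the C1r protease, was at 346 to 380 CPM (median 359) in chow livers and 203 to 266 CPM (median 217) in vehicle livers. The groups did not overlap, and the log2 fold change was -0.69 ± 0.09 (SE, adjusted p = 2.51e-10). C3, the component on which all routes converge, was at 5547 to 24661 CPM (median 7073) in chow and 4117 to 7164 CPM (median 5189) in vehicle. These groups overlapped, and the highest chow value, from chow mouse 5, carried much of the change of -0.82 ± 0.22 (adjusted p = 0.00145): without that mouse it was -0.36 with an adjusted p of 0.114. The classical components C1s1 (-0.39) and C2 (-0.34) also fell, although both turned slightly positive on library totals, and C4b was at 0.08 (adjusted p = 0.748). C4b has a near-identical neighbour, C4a, which took a median of 2.31% and at most 16.8% of the reads of the pair.

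In the lectin pathway, Masp2, the protease that cleaves C4 and C2, was at 185 to 228 CPM (median 213) in chow and 127 to 149 CPM (median 137) in vehicle. It had the smallest spread of all members, the groups were apart, and it changed by -0.63 ± 0.08 (adjusted p = 1.45e-10). Mbl2, a mannose-binding lectin, was at 245 to 415 CPM (median 307) in chow and 201 to 385 CPM (median 281) in vehicle. Those ranges overlapped almost wholly, and its difference of -0.14 did not pass (adjusted p = 0.505). The other lectin, Mbl1, fell by 0.69 on the log2 scale, and Masp1 fell by 0.26 (adjusted p = 0.0429), a call that was lost in 3 of 14 fits with 1 mouse left out and changed sign on library totals.

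The alternative pathway split. Cfb, factor B, was at 1059 to 1337 CPM (median 1214) in chow and 811 to 1107 CPM (median 867) in vehicle. The ranges overlapped at their edges, and the change was -0.39 ± 0.12 (adjusted p = 0.00699), with a sign that turned on library totals (0.03). Cfd, which encodes the factor D protease, was at 0.159 to 14.3 CPM (median 0.558) in chow and 0.299 to 10.2 CPM (median 1.65) in vehicle. The highest value of all in chow came from chow mouse 5, and the difference of 0.33 was not called (adjusted p = 0.727). Without the 4 mice named above, Cfd was 2.40 higher in vehicle (log2, adjusted p = 0.00193), but that fit leaves out chow mouse 5 and no vehicle mouse. The adipocyte markers Adipoq, Plin1, Lep and Adig had median levels under 0.5 CPM in both groups. The other 2 of the 6 adipocyte markers, Fabp4 and Cidec, were called higher with the diet, and the sum of the 6 was 7.24 to 13.1 CPM in chow and 89.8 to 187 CPM in vehicle. The part of fat cells in the Cfd level was not tested.

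The terminal pathway held the largest change of the list. C8b, the beta chain of C8, was at 220 to 360 CPM (median 322) in chow and 41.6 to 106 CPM (median 52) in vehicle. No vehicle liver came near a chow liver, and the log2 fold change was -2.39 ± 0.25, a 5.23-fold lower level (adjusted p = 1.06e-12). C8a, the alpha chain, was at 531 to 733 CPM (median 609) in chow and 148 to 371 CPM (median 267) in vehicle, again without overlap, and changed by -1.31 ± 0.20 (adjusted p = 8.14e-08). The gamma chain C8g (-0.60) and Hc, the gene of C5 (-0.62), fell less, and C6 (-0.27, adjusted p = 0.413) and C9 (-0.05, adjusted p = 0.806) were not called. Of the 6 terminal genes, 4 were called. Both complement inhibitors on the list fell. Cfi, factor I, which cleaves C3b, was at 607 to 1319 CPM (median 661) in chow and 381 to 561 CPM (median 450) in vehicle, a change of -0.71 ± 0.12 without overlap (adjusted p = 4.31e-07). Serping1, the C1 inhibitor, was at 646 to 997 CPM (median 735) in chow and 441 to 662 CPM (median 521) in vehicle, and changed by -0.51 ± 0.14 (adjusted p = 0.00137).

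All 3 fibrinogen chains fell together. Fgg was at 2758 to 4212 CPM (median 3311) in chow and 1425 to 2138 CPM (median 1817) in vehicle. Fga was at 3950 to 6719 CPM (median 4775) in chow and 2066 to 2820 CPM (median 2407) in vehicle. Neither pair of groups overlapped, and the changes were -0.92 ± 0.18 (adjusted p = 2.37e-05) for Fgg and -1.04 ± 0.21 (adjusted p = 2.08e-05) for Fga, with -0.91 for Fgb. F13b, the carrier subunit of the fibrin-crosslinking factor XIII, fell by 0.80 on the log2 scale.

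Of the vitamin K-dependent proteases and factor V, 4 of 5 fell. F2, prothrombin, was at 1715 to 2253 CPM (median 1917) in chow and 1111 to 1488 CPM (median 1177) in vehicle. F7, which starts the tissue factor route, was at 108 to 154 CPM (median 114) in chow and 43.8 to 92.6 CPM (median 65.3) in vehicle. Both genes were apart between the groups, and changed by -0.65 ± 0.09 (adjusted p = 6.06e-09) and -0.89 ± 0.17 (adjusted p = 1.14e-05). F10 fell by 0.73 and F5 by 0.42 on the log2 scale, the latter with a sign that turned on library totals (0.01), and F9 was at -0.24 (adjusted p = 0.115).

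All 4 contact system genes fell. Klkb1, plasma prekallikrein, was at 222 to 369 CPM (median 319) in chow and 118 to 165 CPM (median 131) in vehicle, and changed by -1.25 ± 0.15 (adjusted p = 8.55e-11). Its neighbour F11, factor XI, was at 31.8 to 61.3 CPM (median 58.9) in chow and 21.9 to 35.8 CPM (median 25.2) in vehicle, where the ranges overlapped, and changed by -0.96 ± 0.14 (adjusted p = 1.22e-08). Kng1, the kininogen from which kallikrein frees bradykinin, fell by 0.77, and F12, factor XII, fell by 0.46 on the log2 scale. The paralogue Kng2 took a median of 14.3% of the reads of Kng1 and Kng2 together.

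The anticoagulants went in both directions. Serpind1, heparin cofactor II, was at 563 to 671 CPM (median 654) in chow and 306 to 372 CPM (median 337) in vehicle. This gap was wide against a small spread, and its change of -0.92 ± 0.09 had the smallest p of the list (adjusted p = 3.94e-14). Proc, protein C, was at 456 to 772 CPM (median 603) in chow and 276 to 588 CPM (median 344) in vehicle, and changed by -0.70 ± 0.17 (adjusted p = 0.000528). Pros1, protein S, the cofactor of activated protein C, was at 46.4 to 93.6 CPM (median 51.2) in chow and 53.4 to 83.9 CPM (median 76.3) in vehicle. It alone rose, by 0.38 ± 0.14 on the log2 scale (adjusted p = 0.0196), and this was 0.54 without the 4 mice, although leaving out chow mouse 1 (0.33, adjusted p = 0.0516) or chow mouse 7 (0.32, adjusted p = 0.0543) ended the call. Serpina10, the protein Z-dependent inhibitor, was at -0.12 (adjusted p = 0.651). In fibrinolysis, Plg, plasminogen, was at 2183 to 2801 CPM (median 2474) in chow and 1131 to 1475 CPM (median 1153) in vehicle. Serpinf2, the plasmin inhibitor, was at 813 to 1295 CPM (median 1043) in chow and 413 to 703 CPM (median 435) in vehicle. Plg and Serpinf2 fell alike, by 1.03 (adjusted p = 1.22e-12) and 1.04 (adjusted p = 1.04e-08) on the log2 scale. Cpb2, a carboxypeptidase that protects fibrin, was at 0.28 (adjusted p = 0.138) and rose by 0.36 without the 4 mice (adjusted p = 0.0167).

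Markers of cell types moved with these changes. All 12 hepatocyte markers were called lower with the diet (median -1.03), and their summed level was 121476 to 157815 CPM in chow livers and 54347 to 74875 CPM in vehicle livers. All 8 macrophage and monocyte markers were called higher (median 3.28), with sums of 52.1 to 219 CPM in chow and 553 to 900 CPM in vehicle, and all 8 stellate cell markers were called higher (median 1.27). Of 16 hepatocyte transcription factors, 8 were called lower and 1 higher. Of 16 other acute phase genes, 8 were called higher and 3 lower, at a median of 0.36. The part of these shifts in the fall of the members was not tested.

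**Figure D2:**
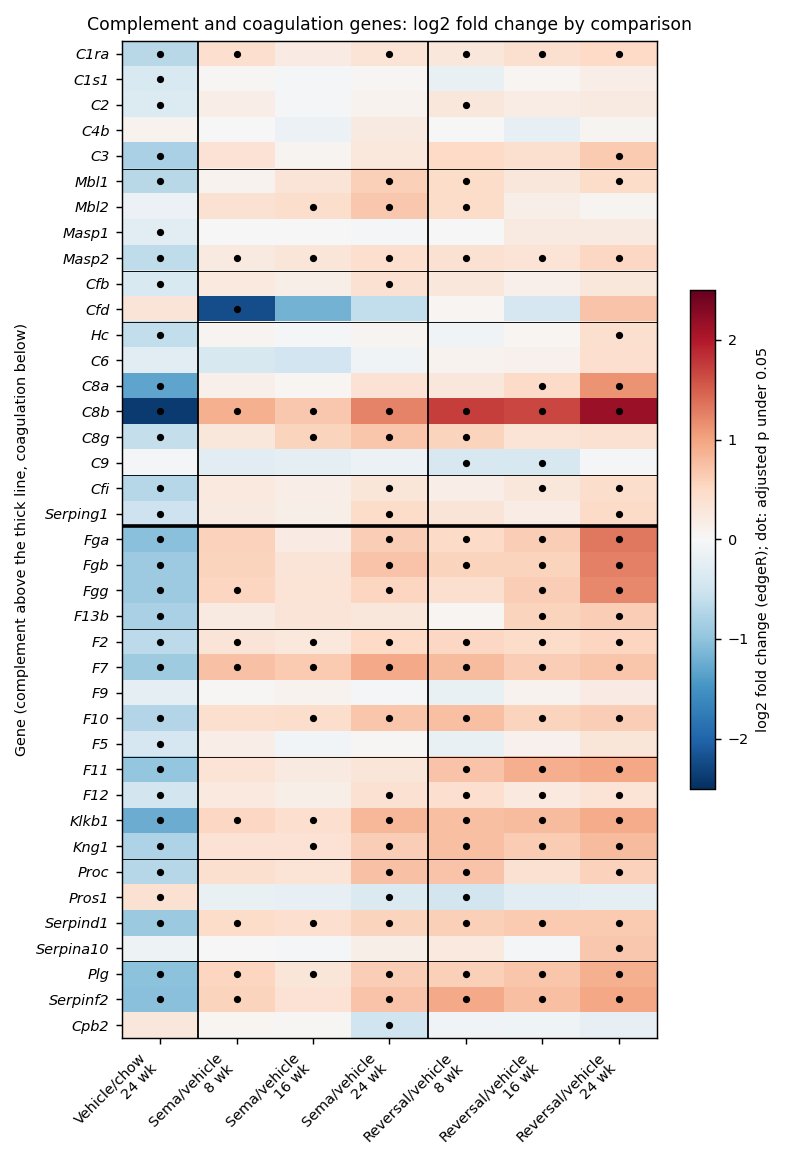
Log2 fold change of each of the 39 genes (rows, ordered by role) in 7 comparisons (columns): vehicle against chow at 24 weeks, and semaglutide and chow reversal each against vehicle at 8, 16 and 24 weeks. Dots mark an adjusted p under 0.05. The diet column is mostly lower and the 6 treatment columns are mostly higher, with C8b the most changed gene in the diet column.

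Semaglutide was compared with vehicle mice killed at the same time. The members that passed rose in nearly all cases, and more passed at 24 weeks: 10 were called higher and 1 lower at 8 weeks (2.24% and 3.51% of all genes), 11 higher and 0 lower at 16 weeks (6.44% and 5.80%), and 22 higher and 2 lower at 24 weeks (10.8% and 13.6%). At 16 weeks edgeR called 0 members lower, 1 was lower at an unadjusted p under 0.05 (C6) and DESeq2 called 0. On library totals the members called higher and lower were 8 and 1, 2 and 2, and 13 and 3 at the 3 times. The share of all calls that were higher moved from 39% to 12.7%, from 52.6% to 13.1% and from 44.2% to 10.5%. With that scaling 154, 357 and 510 of all 14904 genes were called higher and 1054, 2367 and 4340 lower. The member medians were 0.24, 0.20 and 0.38 on the log2 scale. Complement accounted for 9 of the 22 members higher at 24 weeks and coagulation for 13. The comparisons at 24 weeks share the vehicle mice with the diet comparison, so a high or low vehicle value enters both.

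The members called higher at all 3 times were Masp2, C8b, F2, F7, Klkb1, Serpind1 and Plg, 7 of 39, where 1.05% of all genes were called higher at all 3 times. Of these 7, F7 and Serpind1 kept all their calls when 1 mouse was left out. Masp2 lost its call at 8 weeks in 13 of 16 such fits. At 16 weeks C8b lost its call in 10 of 16 such fits, Klkb1 in 9, Plg in 8 and F2 in 2. With semaglutide, Serpind1 was at 459 to 565 CPM after 8 weeks (median 506), 424 to 518 CPM after 16 weeks (median 475) and 438 to 546 CPM after 24 weeks (median 492). The vehicle ranges were 299 to 441, 302 to 407 and 306 to 372 CPM, so the groups did not overlap at any time, and the log2 fold changes were 0.46, 0.42 and 0.56 ± 0.09 (adjusted p at 24 weeks = 1.58e-06). Plg was at 1293 to 2457 CPM (median 1763) with semaglutide at 24 weeks and rose by 0.61 ± 0.11 (adjusted p = 1.53e-05), with 7 of 8 mice above every vehicle mouse. F7 was at 75.8 to 222 CPM (median 115) and rose by 0.95 ± 0.17 (adjusted p = 1.81e-05). Klkb1, at 168 to 330 CPM (median 239), rose by 0.82 ± 0.15 (adjusted p = 1.87e-05) and did not overlap with vehicle. F2, at 1412 to 2165 CPM (median 1722), rose by 0.49 ± 0.09, and Masp2, at 166 to 209 CPM (median 180), rose by 0.41 ± 0.07. C8b, the most diet-sensitive member, was at 65.7 to 368 CPM (median 115) and rose by 1.24 ± 0.24 (adjusted p = 7.49e-05), with 5 of 8 mice above every vehicle mouse. In 5 members (Masp2, Fgb, Klkb1, Kng1 and Serpind1) every semaglutide liver at 24 weeks was above every vehicle liver, against 1.15% of all genes.

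Other members passed at 24 weeks. Among them were Serpinf2 (0.71), Fgb (0.71), F10 (0.70), C8g (0.69), Proc (0.74), Mbl2 (0.66) and Kng1 (0.62). Fga was at 2047 to 6893 CPM (median 3383) and rose by 0.61 ± 0.20 (adjusted p = 0.0188), and its highest value was semaglutide mouse 2. The calls of Fga (0.44, adjusted p = 0.0974), Fgg (0.43, 0.0692), Mbl1 (0.33, 0.104), Cfb (0.28, 0.0840) Serping1 (0.31, 0.0674) and Cfi (0.29, 0.0608) were lost without that mouse, as was that of Pros1 (-0.34, 0.0642). The 2 members that fell were Pros1, at 44.4 to 72 CPM (median 55.9) and a change of -0.36 ± 0.13 (adjusted p = 0.0379) that was lost in 10 of 15 fits with 1 mouse left out, and Cpb2, with a change of -0.51 ± 0.15 (adjusted p = 0.00903) that was -0.31 without vehicle mouse 1 (adjusted p = 0.105). F11 (0.30, adjusted p = 0.0913) and C8a (0.36, adjusted p = 0.167) did not pass. The only member lower at 8 weeks was Cfd, at 0.0610 to 2.47 CPM (median 1.00) with semaglutide and 0.407 to 10.6 CPM (median 3.92) with vehicle, a change of -2.21 ± 0.70 (adjusted p = 0.0467) in overlapping groups, a call that was lost in 11 of 16 fits with 1 mouse left out.

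The count at 16 weeks was the least firm. It was 3 without semaglutide mouse 4 or without vehicle mouse 6, and 8 of the 11 calls could be lost by leaving out 1 mouse. F2 and F7 reached their highest values at 16 weeks, 2167 and 202 CPM, in semaglutide mouse 4. The effect of semaglutide at 24 weeks did not differ from that at 8 weeks for any member by edgeR (0 called, 0.0604% of all genes), where 2 members differed at an unadjusted p under 0.05 (Mbl1 higher and Cpb2 lower) and DESeq2 called 0. Of 12 hepatocyte markers, 4, 6 and 9 were called higher with semaglutide at 8, 16 and 24 weeks, and of 8 macrophage and monocyte markers 0, 4 and 7 were called lower. The part of these shifts in the members' rise was not tested.

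**Figure D3:**
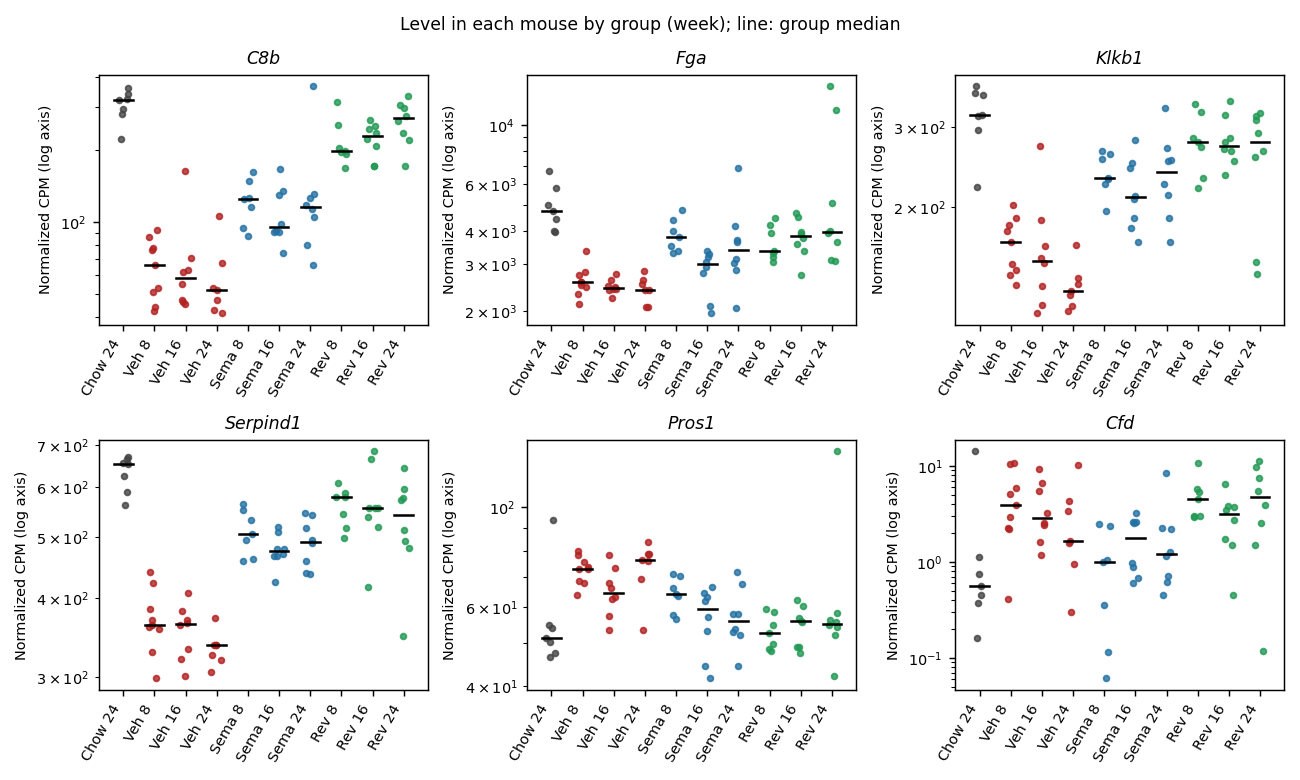
CPM (log axis) of C8b, Fga, Klkb1, Serpind1, Pros1 and Cfd in each of the 77 mice, by group, with a line at the group median. Chow livers lie above vehicle livers for C8b, Fga, Serpind1 and, except 1 vehicle mouse at 16 weeks, Klkb1, chow reversal livers lie nearer to chow, and Cfd is scattered in all groups.

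With chow reversal, too, the members that passed mostly rose. Against vehicle, 20 members were called higher and 2 lower at 8 weeks (14.2% and 17.9% of all genes), 19 higher and 1 lower at 16 weeks (12.1% and 16.2%), and 25 higher and 0 lower at 24 weeks (17% and 19.1%). At 24 weeks no member was lower at an unadjusted p under 0.05 and DESeq2 called 0 lower. On library totals the members called higher and lower were 11 and 7, 10 and 3, and 16 and 2 at the 3 times. The share of all calls that were higher moved from 44.3% to 10.1%, from 42.7% to 10.5% and from 47% to 11.2%. With that scaling 667, 593 and 687 of all 14904 genes were called higher and 5936, 5069 and 5453 lower. The member medians were 0.38, 0.34 and 0.52. The 15 members called higher at all 3 times were C1ra, Masp2, C8b, Fga, Fgb, F2, F7, F10, F11, F12, Klkb1, Kng1, Serpind1, Plg and Serpinf2, 15 of 39, where 6.70% of all genes were called higher at all 3 times. Of these 15, Fga lost its call at 8 weeks in 10 and F12 its call at 16 weeks in 13 of 16 fits with 1 mouse left out. The other 13 members kept all their calls in such fits. All 4 contact system genes were among the 15, with 3 complement genes (C1ra, Masp2 and C8b). At 24 weeks 9 complement and 16 coagulation members were higher.

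After 8 weeks of chow reversal C8b was at 168 to 314 CPM (median 198), after 16 weeks at 171 to 265 CPM (median 228) and after 24 weeks at 170 to 334 CPM (median 269), above every vehicle mouse of the same time. It rose by 1.73, 1.68 and 2.16 ± 0.25 (adjusted p at 24 weeks = 4.79e-11), a 4.48-fold higher level at 24 weeks. C8a was at 380 to 991 CPM (median 490) at 24 weeks and rose by 1.12 ± 0.20 (adjusted p = 3.25e-06), also without overlap. C1ra, at 260 to 392 CPM (median 304), rose by 0.49 ± 0.08 (adjusted p = 1.55e-06). Plg, at 1795 to 2755 CPM (median 2233), rose by 0.88 ± 0.11 (adjusted p = 2.81e-10), and Serpinf2, at 763 to 1285 CPM (median 989), rose by 0.97 ± 0.14 (adjusted p = 8.89e-08). F11, which had not passed with semaglutide, was at 38.2 to 75.8 CPM (median 48.9) and rose by 0.96 ± 0.13 (adjusted p = 1.53e-08). In 10 members (Masp2, C8a, C8b, Fga, Fgb, F2, F11, Kng1, Plg and Serpinf2) every chow reversal liver at 24 weeks was above every vehicle liver, against 1.76% of all genes.

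The fibrinogen chains showed how far 2 mice could move a value. Fga was at 3084 to 14049 CPM (median 3969) at 24 weeks of chow reversal, and its rise of 1.32 ± 0.20 was 0.68 without the 4 mice. Fgg was at 2125 to 9255 CPM (median 2777), with 1.2 and 0.60 for the same values, and Fgb had 1.26 and 0.62. The direction held in both and all 3 stayed called. Serpina10, by contrast, rose by 0.67 (adjusted p = 0.00592) with all mice, 0.32 without chow reversal mouse 7 (adjusted p = 0.132) and -0.01 without the 4 mice (adjusted p = 0.975). Pros1 fell at 8 weeks (-0.45, adjusted p = 0.00581). At 24 weeks it was at 42.2 to 133 CPM (median 55.1) and a difference of -0.22 that was not called, and it fell by 0.46 without the 4 mice (adjusted p = 6.5e-05). C9 fell at 8 weeks (-0.41, adjusted p = 0.0282) and 16 weeks (-0.40, adjusted p = 0.0325), calls that were lost in 7 and in 4 of 16 fits with 1 mouse left out. Its difference between the responses at 24 and 8 weeks was 0.38 (adjusted p = 0.405).

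No member's response to chow reversal differed between 24 and 8 weeks (0 called by edgeR and by DESeq2, 0.215% of all genes), although 9 members were larger at 24 weeks at an unadjusted p under 0.05, among them the 3 fibrinogen chains, C8a and Hc. Of 12 hepatocyte markers, 10, 9 and 11 were called higher at 8, 16 and 24 weeks, with a summed level of 88646 to 122668 CPM at 24 weeks, and all 8 macrophage and monocyte markers were called lower at each time. Their part in the members' rise was not tested.

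C4b, C6 and F9 were called in none of the 7 comparisons. In a joint test of those comparisons 33 of 39 members passed, against 58.7% of all genes.

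**Figure D4:**
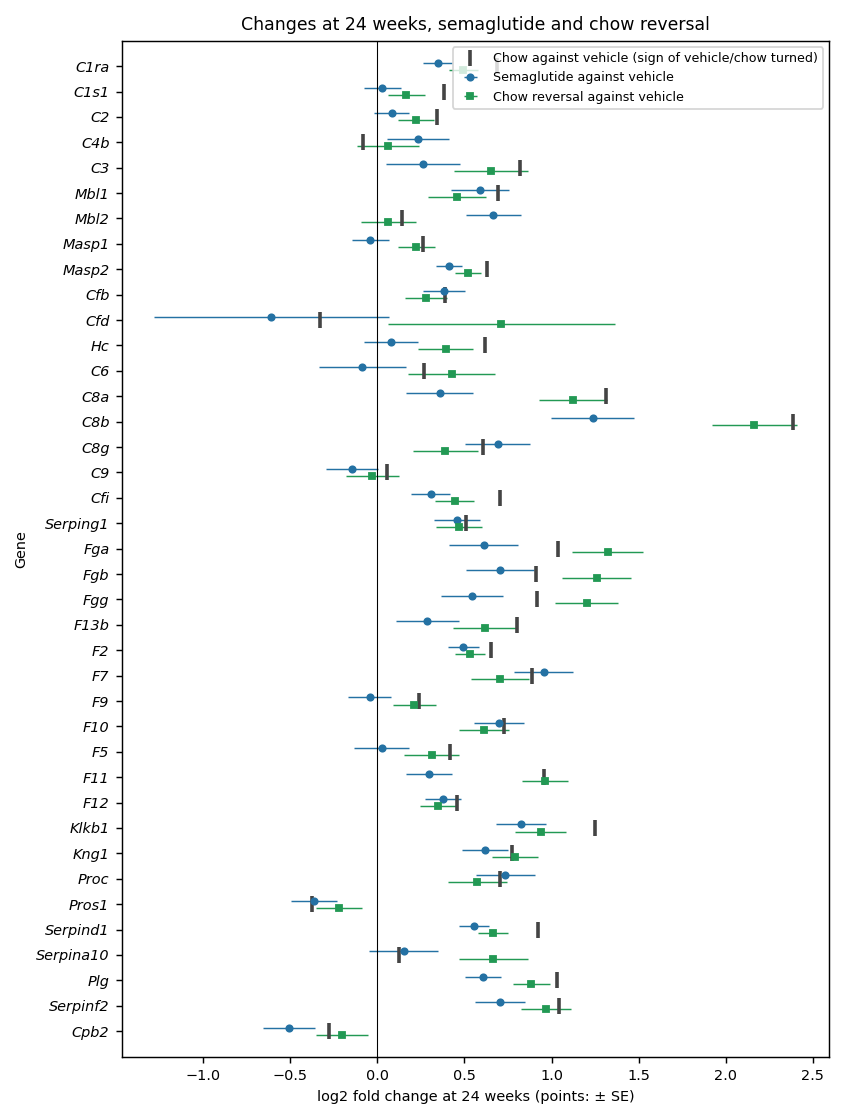
Log2 fold change ± SE at 24 weeks against vehicle for each gene, with semaglutide as circles and chow reversal as squares, and bars for chow against vehicle. C8b, C8a, F11 and fibrinogen lie further to the right with chow reversal than with semaglutide, and Mbl2 lies further to the right with semaglutide.

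Semaglutide and chow reversal were then set against each other directly. Of the 39 members, 2 were lower and 0 higher with semaglutide at 8 weeks (2.64% and 3.52% of all genes). The counts were 3 lower and 0 higher at 16 weeks (3.56% and 6.24%), and 7 lower and 1 higher at 24 weeks (8.72% and 7.77%). At 8 weeks 1 member (F5) and at 16 weeks 0 members were higher at an unadjusted p under 0.05, and DESeq2 called 0 higher at either time. On library totals the counts lower and higher were 2 and 1, 3 and 1, and 6 and 1. The share of all calls that were higher moved from 57.2% to 84.9%, from 63.7% to 83.4% and from 47.1% to 76.3%. With that scaling 231, 281 and 506 of all 14904 genes were called lower and 1296, 1416 and 1628 higher. C8b was lower with semaglutide at all 3 times, by 0.83, 1.01 and 0.93 ± 0.23 on the log2 scale (adjusted p = 0.0235, 0.00143 and 0.00292). Its call at 8 weeks was lost in 4 of 14 fits with 1 mouse left out. F11 was lower at 16 weeks (-0.68, adjusted p = 0.000116) and at 24 weeks (-0.67, adjusted p = 0.000136), and Plg at 16 weeks (-0.40, adjusted p = 0.00574) and at 24 weeks (-0.28, adjusted p = 0.0480). The Plg call at 24 weeks was lost in 10 of 16 fits with 1 mouse left out, and both Plg calls were lost without the 3 libraries numbered apart (-0.26, adjusted p = 0.100, and -0.21, adjusted p = 0.0985). Cfd was lower at 8 weeks (-2.26, adjusted p = 0.0483), when every semaglutide mouse lay below every chow reversal mouse, although the call was lost in 10 of 14 fits with 1 mouse left out. C8a was lower at 24 weeks (-0.76, adjusted p = 0.00295). The fibrinogen differences at 24 weeks (Fga -0.71, Fgg -0.66, Fgb -0.55) were not called without the 4 mice, at -0.24 (adjusted p = 0.214), -0.17 (adjusted p = 0.320) and -0.12 (adjusted p = 0.501).

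Mbl2 went the other way. It was at 349 to 648 CPM (median 422) with semaglutide and 222 to 333 CPM (median 314) with chow reversal at 24 weeks, so that all semaglutide mice were above all chow reversal mice. It was higher by 0.60 ± 0.15 (adjusted p = 0.00410), and by 0.44 without the 4 mice (adjusted p = 0.0700). The count at 24 weeks, 8 in all, was 4 without chow reversal mouse 7 and 13 without semaglutide mouse 2. Without the 4 mice it was again 8, all lower: Cfd, Hc, C6, C8a, C8b, F11, Klkb1 and Plg, of which 4 were also called with all mice.

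Against lean chow livers, chow reversal at 24 weeks left 0 members called by edgeR (6.63% of all genes in either direction). At an unadjusted p under 0.05, 1 was higher (Serpina10) and 5 were lower (C1ra, C1s1, Cfi, Klkb1 and Serpind1), and DESeq2 called 1, Serpind1 (-0.26 by edgeR, adjusted p = 0.0513). A missed threshold does not show equal levels. Without the 4 mice 1 member was called, Cfd, at 3.10 higher. With semaglutide at 24 weeks, 16 members were called lower than in chow and 1, Mbl2, was called higher (13.5% and 17.9% of all genes). Of these 17 calls, 9 could be lost by leaving out 1 mouse, among them C2 in 12, F5 in 10, F13b in 3 and Klkb1 in 2 of 15 fits. Those of C2, C3, Masp1, Masp2 and F5 were lost without the 3 libraries numbered apart. C8b (-1.15 ± 0.23, adjusted p = 7.11e-05) and C8a (-0.95 ± 0.19, adjusted p = 6.34e-05) were furthest below, and F11 (-0.66), F13b (-0.51), Plg and Klkb1 (both -0.42) were also lower. The calls of C3 (-0.56) and Hc (-0.54) were lost without chow mouse 5, at -0.07 (adjusted p = 0.796) and -0.25 (adjusted p = 0.171). C3 lost its call in 6 of 15 fits with 1 mouse left out, and Hc in 1. On library totals 4 members were lower than chow and 2 higher, where 591 of all 14904 genes were lower and 4737 higher. The share of all calls that were higher moved from 57% to 88.9%. Without the 4 mice 17 members were again called, Hc among them (-0.40, adjusted p = 0.00374), and the calls of C3, C1s1, Masp1, F13b and F5 were lost. Mbl2 was 0.53 ± 0.16 above chow (adjusted p = 0.00744), while its difference between vehicle and chow had not passed. The vehicle mice did not differ between 24 and 8 weeks in any member by edgeR (0 called, 0.792% of all genes), 5 members passed an unadjusted p under 0.05 (Cpb2 higher, C1s1, F13b, F5 and Klkb1 lower) and DESeq2 called 1 (Cpb2, 0.49 by edgeR, adjusted p = 0.0969).

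Other genes of these pathways did not follow the members as a group. Of 10 other complement components tested, 6 were called higher and 2 lower with the diet (median 1.5), led by the C1q chains C1qb (3.09), C1qa (2.85) and C1qc (2.74), which macrophages make. The C1q chains fell by 0.71 to 0.77 with semaglutide and by 1.94 to 2.14 with chow reversal at 24 weeks. Among 21 complement regulators and receptors, 8 were higher and 9 lower with the diet, with Itgax at 4.58, the C3a receptor C3ar1 at 3.19 and Cd93 at 2.06. Of 22 other coagulation genes, 8 were higher and 10 lower, and 3 secreted hepatic ones moved as most members did: antithrombin Serpinc1 (-0.88 with the diet, 0.50 with semaglutide and 0.68 with chow reversal at 24 weeks), Serpina1a (-1.46, 0.83 and 1.2) and Proz (-0.87, 0.41 and 0.77). Of 9 other fibrinolysis genes, 7 were higher and 2 lower (median 2.49), among them Anxa2 (3.98) and the tissue plasminogen activator Plat (3.61). Both were lower than vehicle with semaglutide (-2.11 and -1.70) and with chow reversal (-2.62 and -2.28) at 24 weeks, opposite to Plg and Serpinf2.

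The 4 mice named at the start stood apart in different ways. In chow reversal mouse 7 at 24 weeks the 16 acute phase genes summed to 57065 CPM against a group median of 11237 CPM, and in semaglutide mouse 2 to 39224 CPM against 14930 CPM. In chow mouse 5 they summed to 23986 CPM against 10995 CPM, and in chow reversal mouse 8 to 20302 CPM. Mouse 7 of chow reversal had the highest fibrinogen of all livers, while its Mbl2, 222 CPM, was the lowest of its group. Leaving the 4 mice out, the diet comparison called 28 members lower and 3 higher. Semaglutide at 24 weeks then had 20 higher and 2 lower, and chow reversal at 24 weeks 26 higher and 2 lower. The mice were picked on the members' own summed level. How many of all genes were called is not given here for any fit without them. What set these mice apart was not tested.

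**Figure D5:**
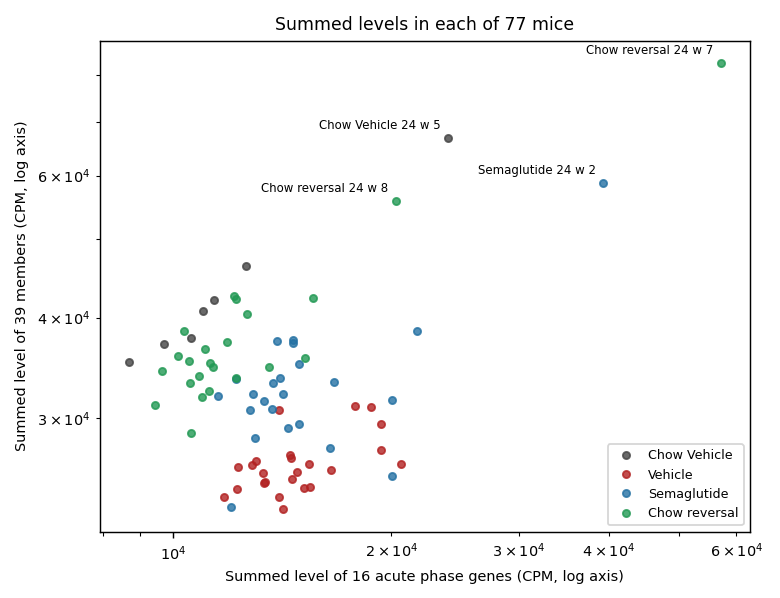
Summed CPM of 16 acute phase genes (x axis) against summed CPM of the 39 members (y axis) in each of the 77 mice, coloured by treatment, with 4 mice labelled. The 4 labelled mice lie above 46371 CPM in the members, and chow reversal mouse 7 at 24 weeks is the highest on both axes.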

How the data were processed

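Per the labels and the study's methods, the authors made directional libraries (NEBNext Ultra II) from total liver RNA, sequenced them on a NextSeq 500 and estimated gene counts. The submitters' processing notes name STAR 2.7.3a, Salmon 1.2.0, FastQC 0.11.9, Picard, DESeq2 and the build GRCm38. The deposited table holds estimated counts (expected counts, not normalized) for 77 libraries, of which 7.55% of values were not whole and were rounded. Every column was mapped to a mouse. Genes were filtered with filterByExpr by group and scaled by TMM, and all 10 groups entered 1 model in edgeR 4.0.16 (R 4.3.3), whose quasi-likelihood test gave p-values that were Benjamini-Hochberg adjusted over all 14904 genes tested. The threshold was 0.05, and fold changes and SEs come from the same fit, with a common dispersion of 0.0660. The calculation was tested on simulated data. Each library is a different mouse, so that p-values measure the spread between mice.

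The members, roles, other pathway genes and marker lists were chosen with earlier results of these data known. The 39 members came from a fixed list of names, the 20 given with ranges per group were up to 2 per role with the smallest p in a joint test of the 7 comparisons with vehicle, and Pros1 and a few others were added after their values were seen. Transcript lengths and positions came from the annotation given with GRCm38, and promoters from RefSeq (GRCm38.p6). C2, C4b, Masp1, Cfb, Cfi, Serping1, Kng1, Proc, Serpina10 and Plg were not matched there. The motif letters were searched on both strands and matches may overlap. Alternatives were DESeq2 1.42.0, its size factors in edgeR, library totals, no filter on low counts, only the compared groups in the fit, leaving out 3 libraries numbered apart from the rest (all semaglutide), sets of 10 consecutive library numbers as a term, and leaving out each mouse. The fit without the 4 mice highest in the members was added after seeing the data. Near-identical paralogues can share reads. Of the other pathway genes, 1 that would be named is not reported here. Library totals were 8883150 to 37631072 reads, and Cfd was the member with the fewest reads.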

Additional observations from a re-analysis of the deposited data

Results flagged for a closer look

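Single mice stood away from the rest of their group by Dixon's test at the 95% level in 22 of 200 tests of the 20 genes described with ranges, and in 51 of 390 tests over all members, where chance gives about 1 in 20. Genes of 1 mouse can move together, so these tests are not independent of each other. Over all members, chow reversal mouse 7 at 24 weeks had 9 such values, and chow mouse 5 and semaglutide mouse 2 at 24 weeks had 7 each. What set these mice apart was not tested.

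The summed level of all members was high in chow mouse 5 (66756 CPM) and in semaglutide mouse 2 at 24 weeks (58709 CPM). The complement members summed to 36582 CPM in chow mouse 5 and to 30126 CPM in chow reversal mouse 7 at 24 weeks. The coagulation members summed to 33994 CPM in semaglutide mouse 2 at 24 weeks and to 18129 CPM in vehicle mouse 3 at 8 weeks.

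Among complement genes, chow mouse 5 was the highest of its group for C3 (24661 CPM), Cfi (1319 CPM) and Cfd (14.3 CPM). Chow reversal mouse 7 at 24 weeks was the highest for C3 (17726 CPM), C8a (991 CPM), Cfi (971 CPM) and Serping1 (1271 CPM), and the lowest for Mbl2 (222 CPM). Semaglutide mouse 2 at 24 weeks was the highest for C8a (686 CPM), C8b (368 CPM) and Serping1 (1328 CPM). Vehicle mouse 4 at 8 weeks was high in C3 (6317 CPM), vehicle mouse 2 at 16 weeks in C8b (162 CPM) and chow reversal mouse 2 at 8 weeks in Cfb (1325 CPM). Values far below the others were found for C1ra in semaglutide mouse 8 at 24 weeks (196 CPM), Masp2 in chow mouse 1 (185 CPM) and Cfi in chow reversal mouse 7 at 16 weeks (381 CPM).

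Among coagulation genes, semaglutide mouse 4 at 16 weeks was high in F2 (2167 CPM) and F7 (202 CPM). Proc was high in vehicle mouse 3 at 24 weeks (588 CPM) and in chow reversal mouse 2 at 24 weeks (765 CPM), and Plg was high in vehicle mouse 1 at 24 weeks (1475 CPM).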

How the results depend on the processing

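Of 174 member fold changes called, DESeq2 kept the direction and the call in 172, DESeq2's size factors in 166, library-number sets in 158, leaving out the 3 libraries numbered apart in 160, no filter in 146, the compared groups alone in 139 and library totals in 101. On library totals 5 reversed in the diet comparison: C1s1 (0.043), C2 (0.076), Masp1 (0.16), Cfb (0.027) and F5 (0.012). Without the 4 mice highest in the members, an alternative chosen after seeing the data, 160 kept their call and 1 reversed, Serpina10 with chow reversal at 24 weeks (-0.0061). Over 2652 values with 1 mouse left out, 264 lost the call and 0 reversed.

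Counts of members called moved as follows, and the cause was not tested. The share of all genes called is not given beside the counts here and in the next paragraph. They show how far a count moved, not how it compares with all genes. With the other groups kept out of the fit, semaglutide at 8 weeks gave 22 and at 16 weeks 1, semaglutide against chow reversal gave 13 at 8 weeks and 2 at 24 weeks, and semaglutide against chow gave 9. On library totals, semaglutide at 16 weeks gave 4, chow reversal at 16 weeks 13, chow reversal against chow 1 and semaglutide against chow 6. With no filter on low counts, semaglutide at 16 weeks gave 3 and semaglutide against chow reversal at 8 weeks 1, as did library-number sets for the latter. Without the 4 mice, semaglutide at 8 weeks gave 17, semaglutide against chow reversal 4 at 8 weeks and 7 at 16 weeks, vehicle at 24 against 8 weeks 1 (Cpb2) and chow reversal against chow 1 (Cfd). DESeq2 called 1 in each of the last pair.

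With 1 mouse left out, counts ran from 29 to 31 with the diet, 8 to 15, 3 to 15 and 17 to 24 with semaglutide at 8, 16 and 24 weeks, and 20 to 24, 16 to 22 and 23 to 27 with chow reversal. Semaglutide against chow reversal ran from 0 to 2, 3 to 6 and 4 to 13, vehicle over time from 0 to 1, chow reversal against chow from 0 to 2 and semaglutide against chow from 12 to 19. No paired analysis was possible because the labels give no replicate numbers shared between groups. Sets of consecutive library numbers were fitted as a term instead, and 158 of the 174 calls stayed. These sets cross the groups, except that the 3 libraries numbered apart form a set of semaglutide mice only. Cfd, at a few CPM, was the member most limited by depth and spread.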
